A study of Mus musculus with 65 samples.

Results

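The mouse genes with symbols from Zfp900 to Zfp999 are zinc finger genes that often sit in local groups, and 33 of the 24465 symbols in the count files carried such a name. The rule uses the symbol alone and no measured value, but it was picked with earlier results of these data known. All 33 matched a RefSeq gene and lay on 12 chromosomes of GRCm38 (mm10), with 10 on chromosome 17, 5 each on chromosomes 7 and 8, and 3 on chromosome 13. The samples were mouse embryonic stem cells. Day 6 and day 3 were embryoid bodies that had been taken out of leukemia inhibitory factor (LIF) and given 10 µM all-trans retinoic acid, and day 0 was the same cells in serum with LIF, the pluripotent state. Poly(A) RNA was sequenced from wild-type (WT) cells at days 0, 3 and 6 in 2019 (6 libraries), and from H3.3K27A, H3.3A knockout and WT cells at day 6 and day 0 in 2020 (11 libraries). Every RNA group had 2 libraries except WT day 0 of 2020, which had 1. Both mutant lines were made with CRISPR/Cas9, and whether each is a single clone is not given in the sources used here. ChIP-seq of WT cells at day 6 and day 0 used an antibody to total H3, one to H3.3, one to H3K27me3 and one to H3.3K27me3, with 2 duplicates of each (16 libraries).

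Most numbered mouse Zfp genes encode tandem C2H2 zinc fingers, each of which reads a few bases of DNA, and many begin with a KRAB domain. In other KRAB zinc finger proteins that domain binds Trim28 (KAP1), which brings in the histone methyltransferase Setdb1 and heterochromatin protein 1 and silences transposable elements and imprinted regions in embryonic stem cells. The variant histone H3.3 is laid down outside replication, at active genes by Hira and at silent repeats by Atrx and Daxx, and trimethylation of lysine 27 by Polycomb repressive complex 2 marks silent developmental promoters. The targets of most of the 33 genes are not known with certainty, and the roles given here are those of the family.

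Zinc finger genes of this kind arise by local duplication, and the label "clustered" held for some of the 33 only. Another numbered Zfp gene lay within 500 kb of 26 of the 33, by the gap between the genes, and another of the 33 did so for 12. Those 12 formed 3 groups. The first was Zfp942, Zfp943, Zfp944, Zfp945, Zfp946, Zfp947 and Zfp948 on chromosome 17, the second Zfp930, Zfp963 and Zfp964 on chromosome 8, and the third Zfp934 and Zfp935 on chromosome 13. Zfp942 on the minus strand and Zfp943 on the plus strand ran away from each other from starts 95 bases apart.

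Start-site sequences of RefSeq (GRCm38.p6), from 250 bases before to 50 bases after the start, were held for 30 of the 33 genes. Zfp930, Zfp934 and Zfp960 had no entry. The 4 shown belong to the member with the largest fall at day 6 (Zfp936), the most abundant member, which also fell (Zfp961), the member with the largest rise (Zfp964), and a riser that shares its start region with a neighbour (Zfp943). Capitals mark CpG dinucleotides.
Zfp936, chr7:43177340-43177639, plus strand: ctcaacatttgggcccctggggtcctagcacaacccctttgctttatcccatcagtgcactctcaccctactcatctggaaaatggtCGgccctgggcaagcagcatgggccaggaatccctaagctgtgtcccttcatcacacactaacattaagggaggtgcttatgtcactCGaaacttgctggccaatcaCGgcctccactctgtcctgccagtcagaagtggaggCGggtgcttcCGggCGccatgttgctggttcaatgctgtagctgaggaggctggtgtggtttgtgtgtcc
Zfp961, chr8:71950816-71951115, plus strand: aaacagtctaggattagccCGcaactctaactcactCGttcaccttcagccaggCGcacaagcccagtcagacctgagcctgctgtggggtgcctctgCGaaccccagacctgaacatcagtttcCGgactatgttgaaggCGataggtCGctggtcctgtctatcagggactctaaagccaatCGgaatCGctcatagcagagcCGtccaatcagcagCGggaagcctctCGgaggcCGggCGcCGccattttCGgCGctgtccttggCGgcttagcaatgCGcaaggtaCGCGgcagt
Zfp964, chr8:69654306-69654605, plus strand: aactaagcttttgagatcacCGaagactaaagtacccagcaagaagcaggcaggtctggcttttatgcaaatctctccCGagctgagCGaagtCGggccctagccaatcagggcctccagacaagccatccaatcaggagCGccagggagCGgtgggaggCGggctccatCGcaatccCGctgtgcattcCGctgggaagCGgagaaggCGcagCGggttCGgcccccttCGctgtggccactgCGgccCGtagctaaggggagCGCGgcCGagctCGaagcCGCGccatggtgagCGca
Zfp943, chr17:21962309-21962608, plus strand: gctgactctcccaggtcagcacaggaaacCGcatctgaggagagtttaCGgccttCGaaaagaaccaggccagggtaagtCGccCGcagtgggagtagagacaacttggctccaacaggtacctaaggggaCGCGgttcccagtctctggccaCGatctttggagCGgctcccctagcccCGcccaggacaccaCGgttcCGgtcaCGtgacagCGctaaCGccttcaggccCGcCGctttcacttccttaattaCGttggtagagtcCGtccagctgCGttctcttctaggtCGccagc

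These 300-base windows held 6 CpGs in Zfp936, 21 in Zfp961, 24 in Zfp964 and 21 in Zfp943, and 194 bases of the Zfp943 window also lay in that of Zfp942. Over the 30 windows the median was 9 CpGs (range 3 to 24), beside a median of 16 in 247 other numbered Zfp genes and 13 in all 17398 genes with an entry. A CpG-rich start (observed over expected CpG of at least 0.6 and GC of at least 50%) was found in 6 of 30 (20%), beside 53.8% of the other numbered Zfp genes and 46% of all genes. Motifs were searched on both strands as exact letters. The ETS-type motif CGGAAGT was in 16.7% of the 30 windows, 20.6% of those of other numbered Zfp genes and 8.62% of all windows. The GC box GGGCGG was in 33.3%, 46.6% and 46.6% of the same sets, AAGATGG in 6.67%, 10.1% and 6.5%, and TATAAA in 0 of 30, 7.29% and 12.9%.

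Counts assigned to genes came to 6.97 to 12.71 M (M, 1e6) per library in 2019 and 14.27 to 22.03 M in 2020. H3f3a, the gene named in the knockout label, had 20.4 to 24.2 counts per 1e6 assigned counts (CPM) in the 8 libraries of the H3.3K27A and H3.3A knockout lines, against 114 to 129 CPM in the 3 WT libraries of 2020, so its transcript was low in both mutant lines. Summed CPM of 8 stem cell markers lay between 191 and 580 at day 6, between 816 and 837 at day 3, and between 6620 and 8040 at day 0. Summed neural markers reached 1200 to 1380 CPM at day 6 in 2019 and 186 to 434 CPM at day 6 in 2020, so the day 6 samples of the years differed in these markers. Summed fibroblast markers were 924 to 1109 CPM at day 6 against 14.8 to 15.3 CPM at day 0 in 2019, and 134 to 304 CPM at day 6 against 371 to 547 CPM at day 0 in 2020, so they were higher at day 6 in one year and lower in the other. Summed 2-cell-like markers were 12.6 to 12.8 CPM at day 6 against 1.22 to 1.28 CPM at day 0 in 2019, and 3.43 to 8.32 CPM at day 6 against 10.1 to 24.3 CPM at day 0 in 2020. The 2 H3.3A knockout libraries of day 6 stood apart from each other: their summed primitive endoderm markers were 1577 and 896 CPM, against 476 to 612 CPM in the other day 6 libraries of both years, and the 33 genes summed to 468 and 556 CPM. In bulk RNA, fewer cells of a type and less RNA per cell cannot be told apart. The part of cell makeup in the differences below was not tested. Nothing in the labels says that RNA duplicates came from separate cultures, so p-values measure the spread between these libraries, which may be technical.

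Of the 33 genes, 28 passed the filter on low counts in each year and all 33 are accounted for here. Together they summed to 468 to 742 CPM per library. Per kilobase of exon, mean levels over the 17 libraries were 29.9 CPM per kb for Zfp961, 18.2 for Zfp930, 14 for Zfp936, 8.82 for Zfp940 and 8.70 for Zfp942, and lowest among those that passed for Zfp939 at 0.996. Before division by length, the 17 libraries spanned 44.1 to 146 CPM for Zfp961, 35.9 to 94.9 CPM for Zfp930 and 6.54 to 108 CPM for Zfp936. These ranges overlap, but they pool all days and lines. Within each of the 17 libraries Zfp961 had the highest CPM of the 3, and its exons are the shortest of the 3. Zfp936 lay above Zfp930 in some libraries and below it in others, so the order of Zfp930 and Zfp936 is that of their means only.

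Differentiation did not move these genes as a block. At day 6 against day 0 in 2019, 10 of 28 rose and 7 fell, beside 41.4% and 36.6% of all 13593 genes tested (edgeR quasi-likelihood test, Benjamini-Hochberg adjusted p under 0.05). In 2020, 9 rose and 9 fell in WT cells, beside 36% and 34.8% of 14760 genes. The median log2 change of the 28 was 0.11 in 2019 and 0.18 in 2020, against 0.09 and 0.08 over all genes tested. The share of the 28 called, beside that of all genes, was 60.7% and 78% in WT 2019, 64.3% and 70.8% in WT 2020, 89.3% and 77.2% in H3.3A knockout cells and 75% and 76.7% in H3.3K27A cells, so it lay on both sides of the background. None of the 28 was called in opposite directions by the 2 WT years, beside 2.89% of the 13326 genes tested in both. At day 6, 6 genes fell in both years (21.4%, beside 29.3% of all genes), namely Zfp930, Zfp936, Zfp940, Zfp953, Zfp960 and Zfp961. In both years 7 rose (25%, beside 30.4% of all genes), namely Zfp937, Zfp938, Zfp943, Zfp950, Zfp952, Zfp963 and Zfp964.

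Zfp936 on chromosome 7, whose start has the fewest CpGs of the 4 shown, had the largest fall. It had 79.5 and 108 CPM at day 0, 34.4 and 32.9 CPM at day 3 and 10.7 and 10.9 CPM at day 6 in 2019. Each step was a fall, with log2 changes of -1.49 ± 0.13 (SE) for day 3 over day 0 and -1.64 ± 0.15 for day 6 over day 3. In 2020 it had 7.59 and 6.54 CPM in WT cells at day 6 against 88.2 CPM at day 0, 7.85 and 8.91 CPM in H3.3A knockout cells at day 6 against 71.7 and 83.0 CPM at day 0, and 7.67 and 8.24 CPM in H3.3K27A cells at day 6 against 90.5 and 84.6 CPM at day 0. The ranges of day 6 and day 0 were far apart in each line. The log2 changes of day 6 over day 0 were -3.13 ± 0.15 in WT 2019 (adjusted p = 6.14e-10), -3.64 ± 0.13 in WT 2020 (adjusted p = 3.05e-08), -3.20 ± 0.12 in H3.3A knockout cells (adjusted p = 1.63e-08) and -3.46 ± 0.12 in H3.3K27A cells (adjusted p = 1.06e-08).

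Zfp961, the most abundant of the 33, had 135 and 146 CPM at day 0, 98.8 and 93.9 CPM at day 3 and 71.2 and 65.8 CPM at day 6 in 2019. It too fell at each step. In 2020 its day 6 levels were 45.7 and 49.2 CPM in WT cells, 44.1 and 46.3 CPM in H3.3A knockout cells and 59.3 and 56.3 CPM in H3.3K27A cells, and its day 0 levels were 93.3 CPM in WT cells, 86.8 and 88.8 CPM in H3.3A knockout cells and 104 and 97.1 CPM in H3.3K27A cells. Day 6 over day 0 was -1.04 ± 0.08 on the log2 scale in WT 2019 (adjusted p = 6.91e-08), -0.98 ± 0.09 in WT 2020, -0.96 ± 0.08 in H3.3A knockout cells and -0.80 ± 0.08 in H3.3K27A cells. Zfp960 on chromosome 17 had 13.2 and 20.3 CPM at day 0, 7.68 and 9.97 CPM at day 3 and 6.71 and 6.85 CPM at day 6 in 2019, a log2 change of -1.34 ± 0.22 for day 6 over day 0 (adjusted p = 9.14e-05), and -1.24 ± 0.17 in WT 2020. Only 24.2% of the 75-base windows in its exons occur once in the genome, the lowest share of the 33, so its counts are uncertain. Zfp930 had 94.3 and 94.9 CPM at day 0, 64.1 and 56.5 CPM at day 3 and 59.4 and 54.1 CPM at day 6. Its fall was complete by day 3: the log2 change was -0.65 ± 0.09 for day 3 over day 0 (adjusted p = 2.56e-05) and -0.09 ± 0.09 for day 6 over day 3 (adjusted p = 0.433). Zfp930, Zfp936, Zfp960 and Zfp961 fell in all 4 comparisons of day 6 with day 0, including both mutant lines (14.3% of the 28, beside 27.1% of all genes).

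Zfp953 fell in 2019 by 1.24 on the log2 scale (SE 0.17, adjusted p = 1.63e-05), with 10.8 and 9.14 CPM at day 6 against 19.9 and 26.7 CPM at day 0. In 2020 its WT change was -0.55 ± 0.16 (adjusted p = 0.0103), and in H3.3K27A cells -0.31 ± 0.13 did not pass (adjusted p = 0.0564). It shares 8.6% of its exon bases with Zfp595. Zfp940 had 18.4 and 21.2 CPM at day 6 against 30.7 and 32.5 CPM at day 0 in 2019, and its change was -0.35 ± 0.11 in WT 2020 and 0.08 ± 0.10 in H3.3K27A cells, the last not called. Zfp951 fell in 2019, to 7.53 and 7.76 CPM at day 6 against 12.4 and 14.8 CPM at day 0, but at 1.35 and 2.00 CPM against 2.90 CPM in WT 2020 its change of -0.80 ± 0.39 did not pass (adjusted p = 0.0922).

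Zfp964 on chromosome 8 had the largest rise and started from very low counts. It had 0.321 and 1.22 CPM at day 0, 4.21 and 4.27 CPM at day 3 and 6.57 and 7.40 CPM at day 6 in 2019. In 2020 it had 4.04 and 4.14 CPM at day 6 against 0.602 CPM at day 0 in WT cells, 3.19 and 3.64 CPM against 0.773 and 0.497 CPM in H3.3A knockout cells, and 4.84 and 3.09 CPM against 0.134 and 0.732 CPM in H3.3K27A cells. Day 6 lay above day 0 in every library, and the log2 change was 2.97 ± 0.37 (adjusted p = 7.41e-06) in WT 2019, 2.75 ± 0.57 (adjusted p = 0.00173) in WT 2020, 2.43 ± 0.45 in H3.3A knockout cells and 3.27 ± 0.50 in H3.3K27A cells. The size rests on few day 0 counts: without the second day 0 library it was 4.38 in WT 2019 and 4.83 in H3.3K27A cells, and without the first H3.3K27A day 0 library 2.43, with the call kept each time. Its chromosome 8 neighbour Zfp963 had 4.50 and 8.52 CPM at day 0, 13.6 and 15.3 CPM at day 3 and 21.2 and 19.5 CPM at day 6, a log2 change of 1.56 ± 0.21 for day 6 over day 0 (adjusted p = 1.68e-05), and 1.81 ± 0.18 in WT 2020, at 12.4 and 12.2 CPM against 3.5 CPM. Without the second day 0 library the 2019 change was 2.17. Zfp930, the other gene of that group, fell, so the 3 chromosome 8 neighbours did not move together.

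The divergent pair on chromosome 17 also differed in its levels. Zfp943 had 4.66 and 5.24 CPM at day 0, 9.79 and 12.6 CPM at day 3 and 15.2 and 14.9 CPM at day 6 in 2019, and 22.5 and 21.2 CPM at day 6 against 6.68 CPM at day 0 in WT 2020. Its log2 change was 1.59 ± 0.19 in 2019 (adjusted p = 6.95e-06) and 1.71 ± 0.18 in 2020, with 1.68 ± 0.14 in H3.3A knockout cells and 1.62 ± 0.14 in H3.3K27A cells. Zfp942 had 13 and 12.1 CPM at day 0, 26.8 and 24.3 CPM at day 3 and 28.0 and 28.3 CPM at day 6 in 2019, so its rise was reached by day 3 (day 6 over day 3, 0.14 ± 0.11, adjusted p = 0.284). Day 6 over day 0 was 1.17 ± 0.13 in 2019 (adjusted p = 1.99e-06), while in WT 2020, at 35.0 and 34.3 CPM at day 6 against 29.7 CPM at day 0, the change of 0.22 ± 0.10 did not pass (adjusted p = 0.0652). The WT day 0 level of Zfp942 was thus higher in the 2020 library than in both 2019 libraries, which were normalized in a separate fit. The summed fibroblast markers also differed between those day 0 libraries, at 371 CPM in 2020 and 14.8 and 15.3 CPM in 2019, and their part in this was not tested.

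Other genes that rose in both years had smaller changes in 2019. Zfp950 had 26.3 and 23.9 CPM at day 6 against 12.2 and 14 CPM at day 0 in 2019 (log2 change 0.93 ± 0.14), and 39.6 and 33.4 CPM against 9.26 CPM in WT 2020 (1.98 ± 0.29). In H3.3A knockout cells its day 6 libraries, at 28.4 and 47.4 CPM, differed from each other. Zfp937 had 28.8 and 28.5 CPM at day 6 against 14.9 and 19 CPM at day 0 in 2019 (0.73 ± 0.15, adjusted p = 0.000525), and 29.1 and 28.2 CPM against 11.8 CPM in WT 2020 (1.28 ± 0.14). Zfp952 rose by 0.80 ± 0.13 and 0.57 ± 0.17 in the 2 years, and Zfp938 by 0.50 ± 0.15 and 0.44 ± 0.16. All 7 genes that rose in both WT years also rose in H3.3A knockout cells and in H3.3K27A cells (25% of the 28, beside 28.1% of all genes). In H3.3A knockout cells 13 of 28 rose and 12 fell (40.8% and 36.4% of all genes, 77.2% in either direction), and in H3.3K27A cells 13 rose and 8 fell (39.5% and 37.2%, 76.7% in either direction). The 3 comparisons of 2020 come from 1 fit but do not share libraries.

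**Figure D1:**
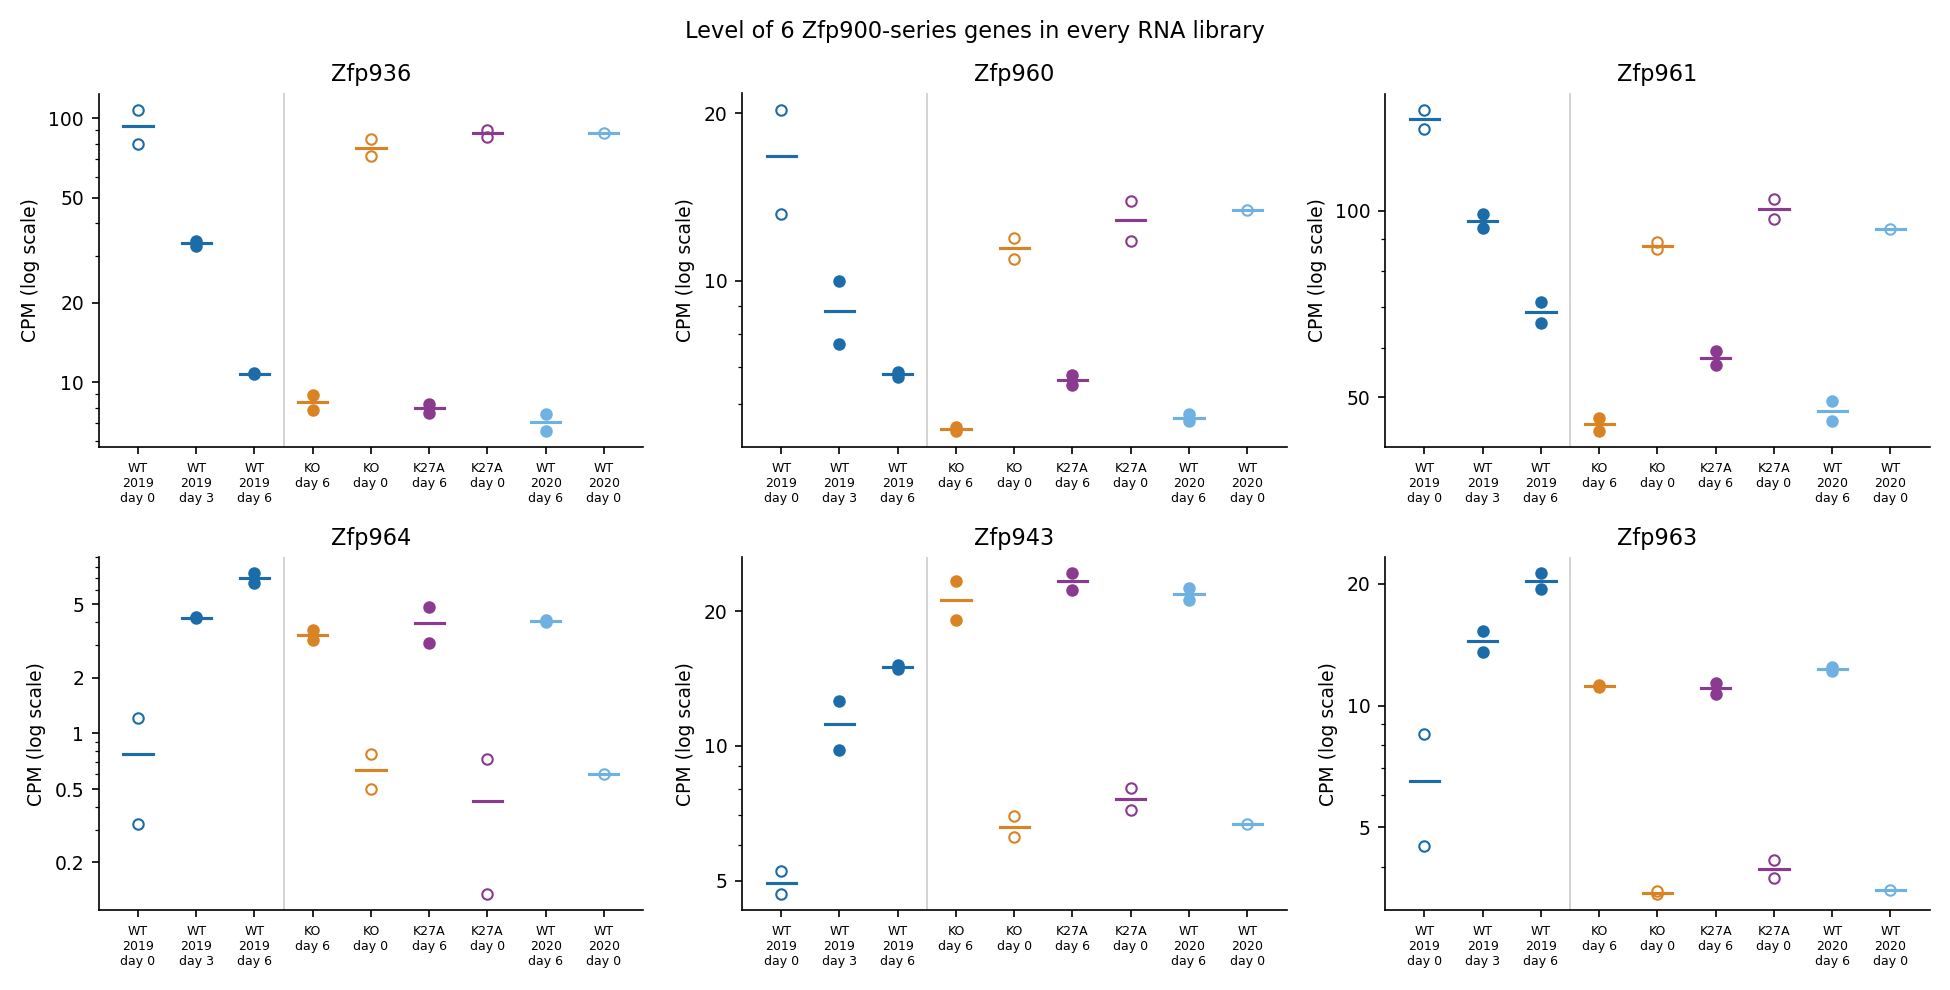
Level of 6 genes in CPM (log scale) in each of the 17 RNA libraries. Points are libraries, open at day 0, and short lines are group means. Zfp936, Zfp960 and Zfp961 (upper row) were lower at day 6 than at day 0, and Zfp964, Zfp943 and Zfp963 (lower row) were higher, in WT and in both mutant lines (KO, H3.3A knockout; K27A, H3.3K27A).

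**Figure D2:**
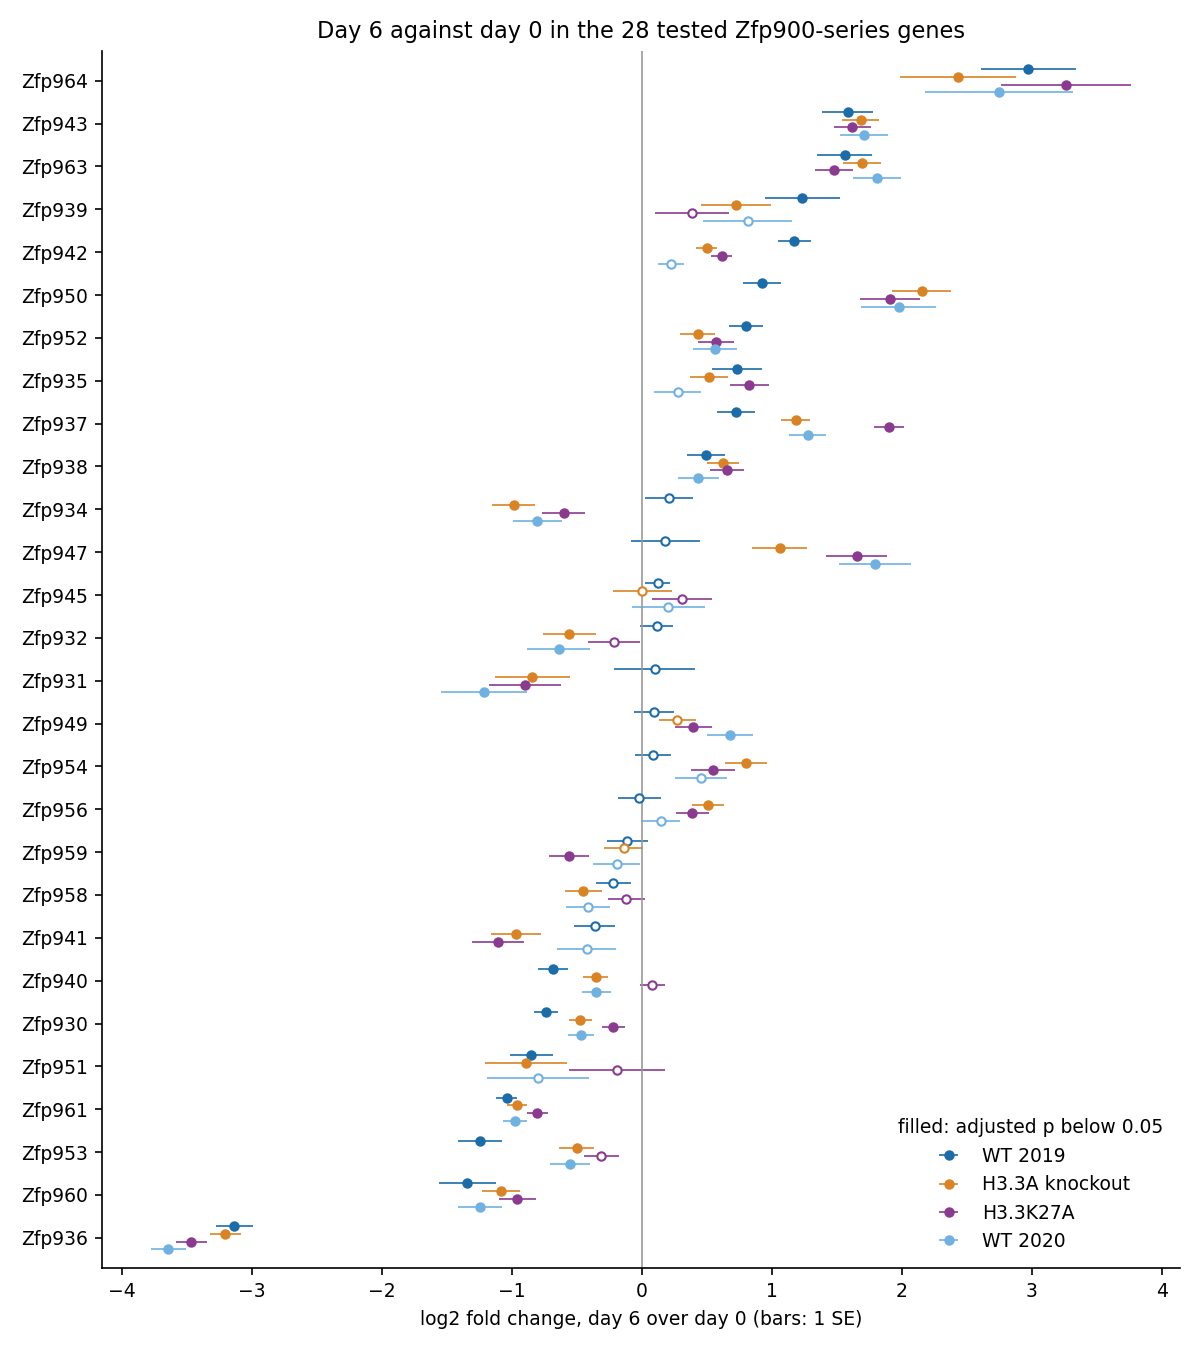
Log2 fold change of day 6 over day 0 with 1 standard error for the 28 genes tested, in 4 comparisons. Filled points passed an adjusted p of 0.05. Zfp964 lies at the top (2.97 in WT 2019) and Zfp936 at the bottom (-3.13 in WT 2019).

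Some genes were called in WT cells of 1 year only. Zfp947 had 8.05 and 8.67 CPM at day 6 against 2.41 CPM at day 0 in WT 2020, a log2 change of 1.79 ± 0.28 (adjusted p = 0.000264), but 4.50 and 4.66 CPM against 5.14 and 3.28 CPM in 2019 (0.18 ± 0.27, adjusted p = 0.546). Zfp934 had 6.16 and 6.54 CPM against 11.1 CPM in WT 2020 (-0.80 ± 0.19, adjusted p = 0.00384) and 8.12 and 9.59 CPM against 7.23 and 7.87 CPM in 2019 (0.21 ± 0.18, adjusted p = 0.304). Zfp931 had 2.81 and 2.22 CPM against 5.86 CPM in WT 2020 (-1.21 ± 0.33, adjusted p = 0.00825) and 3.84 and 4.20 CPM against 3.05 and 4.21 CPM in 2019 (0.10 ± 0.31). These 3 were also called in H3.3A knockout and in H3.3K27A cells of 2020, in the direction of WT 2020. For these 3 the signs or sizes of the 2 years are values of separate fits, and the difference between years was not tested. Zfp939 rose in 2019 to 4.94 and 5.02 CPM at day 6 against 1.61 and 2.43 CPM at day 0 (1.24 ± 0.29), all of it after day 3, where it had 1.86 and 2.02 CPM. In WT 2020, at 2.85 and 2.75 CPM against 1.59 CPM, its change of 0.81 ± 0.34 did not pass (adjusted p = 0.0548). Zfp939 was called higher at day 6 than at day 0 in H3.3A knockout cells. Unique exon windows made up 77.7% for Zfp947 and 66.8% for Zfp934.

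Zfp941, Zfp945, Zfp954, Zfp956, Zfp958 and Zfp959 were called in neither WT year. Zfp945, the third in mean CPM but the tenth per kb, had 47.1 and 49.3 CPM at day 0, 48.3 and 49.6 CPM at day 3 and 56.5 and 48.4 CPM at day 6 in 2019 (0.12 ± 0.10 for day 6 over day 0, adjusted p = 0.264). In 2020 it had 48.6 and 45.8 CPM at day 6 against 40.9 CPM at day 0 in WT cells. Zfp958 had 26.7 and 25.3 CPM at day 6 against 25.4 and 34.2 CPM at day 0 in 2019, with a change of -0.22 ± 0.13 (adjusted p = 0.152).

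At day 3 against day 0 in 2019, 8 of the 28 rose and 8 fell (37.6% and 33.8% of all genes, 71.4% in either direction), and at day 6 against day 3, 7 rose and 3 fell (29.4% and 27.9%, 57.3% in either direction). Zfp936, Zfp961 and Zfp951 were the 3 that fell in the second interval. Zfp932, Zfp939, Zfp943, Zfp950, Zfp952, Zfp963 and Zfp964 rose in it. Unique exon windows made up 59.8% for Zfp932. DESeq2 called 4 of the 28 in the second interval, 2 in each direction, in place of 10. Without the first and the second day 3 library the count was 4 and 5, and without the first and the second day 6 library 4 and 6, so the call of single genes in this interval depended on each library.

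Zfp933, Zfp944, Zfp946 and Zfp948 are listed at 0 counts in all 17 libraries, and Zfp957 had 15 counts in all, spread over 11 libraries, too few for a test. The authors' deposited table of the 2019 comparison gives other values for these genes: means of 18.2 at day 6 and 8.47 at day 0 for Zfp933 (adjusted p = 0.000172), 21.8 and 12 for Zfp944 (adjusted p = 0.00168), 22.5 and 7.18 for Zfp946 (adjusted p = 6.51e-11), and 26.8 and 20.6 for Zfp948 (adjusted p = 0.468). Of these 4 genes, 3 were thus higher at day 6 by the authors' deposited table. Their exon windows are 99.5%, 93.4%, 84.3% and 100% unique and no RefSeq exon of another gene overlaps them. Why the count files list them at 0 was not tested, and these 0s are not taken as an absence of transcript. For the 28 genes tested, the authors' deposited table and the present fit gave the same sign for 26 and differed by at most 0.28 on the log2 scale.

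The mutant lines differed from each other and from WT in few of the 28. At day 0, no gene was called between H3.3A knockout and WT cells (0.122% of all genes, with 0.0271% higher and 0.0949% lower), between H3.3K27A and WT cells (1.73%, with 0.569% higher and 1.17% lower) or between H3.3K27A and H3.3A knockout cells (1.27%, with 0.461% higher and 0.806% lower) by edgeR's quasi-likelihood test. Genes with an unadjusted p under 0.05 numbered 0, 2 and 4 in those 3 comparisons, and DESeq2 also called 0 in each. The last 2 of the 3 did give calls with only the libraries compared, and without both H3.3A knockout libraries of day 6 (chosen after seeing the data). At day 6, no gene was called between H3.3A knockout and WT cells (11.4% of all genes, with 6.98% higher and 4.42% lower), with 2 at an unadjusted p under 0.05 and 0 called by DESeq2. The count of calls changed when either H3.3A knockout library of day 6 was left out. These 2 libraries also agreed least of all RNA duplicates over all genes tested (correlation of log2 CPM 0.987).

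Zfp941 was lower in H3.3K27A than in WT cells at day 6, the only gene of the 28 called in that comparison by the main fit (2.04% of all genes, with 1.13% higher and 0.908% lower). More of the 28 were called with only the libraries compared, and without both H3.3A knockout libraries of day 6 (chosen after seeing the data). Zfp941 had 7.55 and 9.02 CPM in H3.3K27A cells, 9.37 and 14.2 CPM in H3.3A knockout cells and 17.2 and 14.2 CPM in WT cells at day 6. The H3.3K27A and WT libraries do not overlap, and the log2 difference was -0.93 ± 0.20 (adjusted p = 0.0475). The call was lost when any 1 of the 4 libraries was left out (adjusted p 0.134 to 0.382) and with a replicate block (adjusted p = 0.087).

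Zfp937 and Zfp961 were higher in H3.3K27A than in H3.3A knockout cells at day 6, 2 of 28 beside 18.7% of all genes (9.03% higher and 9.64% lower). Zfp937 had 37.6 and 38.2 CPM in H3.3K27A cells against 25.9 and 25.9 CPM in H3.3A knockout cells, a log2 difference of 0.55 ± 0.10 (adjusted p = 0.00684), with 29.1 and 28.2 CPM in WT cells. Zfp961 had 59.3 and 56.3 CPM in H3.3K27A cells against 44.1 and 46.3 CPM in H3.3A knockout cells, a difference of 0.35 ± 0.08 (adjusted p = 0.0138). Neither pair of groups overlaps. Each call was lost without either 1 of the H3.3K27A day 6 libraries (adjusted p 0.0598 and 0.0661 for Zfp937, 0.0609 and 0.135 for Zfp961), and with only the libraries of those 2 groups (0.067 and 0.112). The count of calls in this comparison also changed without either H3.3A knockout library of day 6.

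The rise of Zfp937 at day 6 over day 0 was larger in H3.3K27A cells, at a log2 change of 1.90 ± 0.11, than in H3.3A knockout cells, at 1.19 ± 0.11, while WT 2020 had 1.28 ± 0.14. The interaction was 0.72 ± 0.16 (adjusted p = 0.0343, edgeR quasi-likelihood test), the only one of the 28 called, beside 5.39% of all genes (3.23% higher and 2.16% lower). It did not pass with a replicate block (adjusted p = 0.0607) or with only the 4 groups compared (adjusted p = 0.071). It was also lost without either H3.3A knockout library of day 0, either H3.3K27A library of day 6 or the second H3.3K27A library of day 0 (adjusted p 0.0985 to 0.14). The count of calls in this interaction also changed without the second H3.3A knockout library of day 6. Unique exon windows made up 76.7% for Zfp937. Between H3.3A knockout and WT cells the interaction was called for 0 of 28, beside 0.0813% of all genes (0.0407% higher and 0.0407% lower). Of the 28, 1 had an unadjusted p under 0.05, and the count of calls changed without the second H3.3A knockout library of day 6. Between H3.3K27A and WT cells the interaction was also called for 0, beside 0.766% (0.549% higher and 0.217% lower), with 4 at an unadjusted p under 0.05. DESeq2 called 0 in both. With 1 WT day 0 library in 2020, these interactions have less precision than the others.

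**Figure D3:**
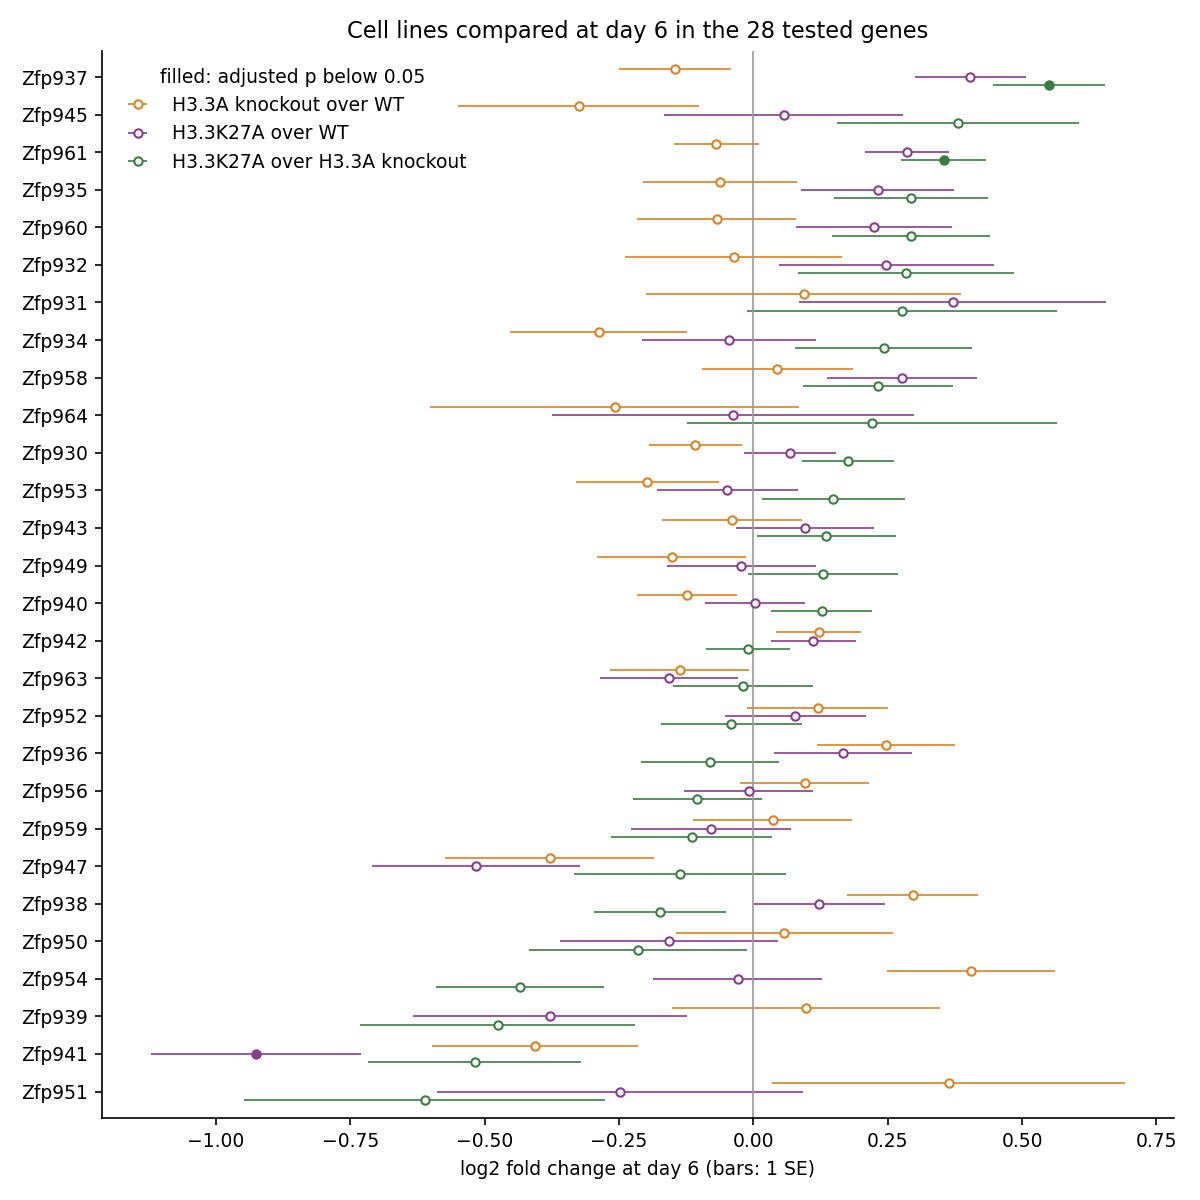
Log2 fold change between cell lines at day 6 with 1 standard error for the 28 genes tested. Filled points passed an adjusted p of 0.05: Zfp937 and Zfp961 for H3.3K27A over H3.3A knockout (0.55 and 0.35) and Zfp941 for H3.3K27A over WT (-0.93).

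ChIP peaks were the authors' filtered MACS2 calls, made without a control library, so an H3 peak at the same place bears on each of the others. A start, taken with 1000 bases to either side, counted as marked where a peak touched it in both duplicates. H3.3K27me3 peaks lay at 2 of 33 starts at day 6 (6.06%, beside 2.63% of 23395 genes) and 6 at day 0 (18.2%, beside 11.2%). H3K27me3 peaks lay at 3 starts at day 6 (9.09% and 11%) and 4 at day 0 (12.1% and 18%). H3.3 peaks were the most frequent, at 13 starts at day 6 (39.4% and 25.1%) and 16 at day 0 (48.5% and 37.5%). H3 peaks lay at 4 starts at day 6 (12.1% and 2.12%) and 6 at day 0 (18.2% and 5.27%), shares above those of all genes.

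The K27me3 peaks fell on few genes and mostly where H3 itself had a peak. Zfp936 and Zfp960 had an H3.3K27me3 and an H3K27me3 peak on both days, and Zfp930 had H3K27me3 on both days and H3.3K27me3 at day 0, with H3.3K27me3 in 1 duplicate at day 6 (enrichment 3.05). Zfp961 had H3.3K27me3 in 1 duplicate at day 6 (3.22) and in both at day 0 (3.25 and 2.84). Zfp963 had it in neither duplicate at day 6 and in both at day 0 (2.56 and 2.84). All 5 also had an H3 peak in both duplicates at day 0. Without genes that had such an H3 peak, H3.3K27me3 peaks were at 0 starts at day 6 and 1 at day 0 (3.03%, beside 8.78% of all genes), and H3K27me3 peaks at 0 and 1 (3.03% and 15.8%); the 1 gene was Zfp964 in both cases. H3.3 peaks were then at 9 starts at day 6 and 11 at day 0. The part of the H3 signal in the other peaks was not tested.

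At Zfp964 the H3K27me3 peak was present in both duplicates at day 0, with the authors' fold enrichments of 5.51 and 4.76 over 18.7 and 18.2 kb, and in neither duplicate at day 6. At the start, the H3.3K27me3 peak was found in 1 duplicate at day 6 (3.01) and in both at day 0 (2.67 and 2.84). Over the whole gene H3.3K27me3 had a peak in both duplicates on both days. H3.3 had a peak in both duplicates at day 6 (3.13 and 2.30) and in 1 at day 0 (2.5). H3 had one in neither duplicate at day 6 and in 1 at day 0 (2.95). Zfp964 is the gene with the most CpGs of the start windows held.

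At Zfp936 the peaks were broad and present for each antibody in each library. H3.3K27me3 had enrichments of 3.29 and 3.86 at day 6 and 4.88 and 4.74 at day 0, H3K27me3 2.74 and 2.92 at day 6 and 3.15 and 2.92 at day 0, H3.3 3.92 and 2.92 at day 6 and 4.65 and 6.10 at day 0, and H3 3.09 and 2.84 at day 6 and 3.11 and 3.23 at day 0. H3.3K27me3 libraries were shallower at day 6 (33.62 and 37.76 M tags) than at day 0 (81.24 and 55.21 M tags), and each library was called by itself, so enrichments and lengths describe single libraries and are no test between days. The peaks spanned 28.3 to 79.2 kb at day 6 and 66.5 to 204 kb at day 0, well past the 14.5 kb gene. At Zfp960 all 4 antibodies had a peak in every library, most close to 50 kb long and ending near the start of the gene. Only 24.2% of its exon windows are unique. The part of repeated sequence in these peaks, and in the region signal given below for Zfp960, was not tested. Over the whole gene, at least 1 base of peak in both duplicates was found for H3.3K27me3 at 8 of 33 genes at day 6 and 11 at day 0 (9.74% and 16.5% of all genes), for H3K27me3 at 4 and 6 (15.4% and 21.9%), for H3.3 at 15 and 17 (35.7% and 46%) and for H3 at 7 and 9 (7.58% and 13.6%).

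**Figure D4:**
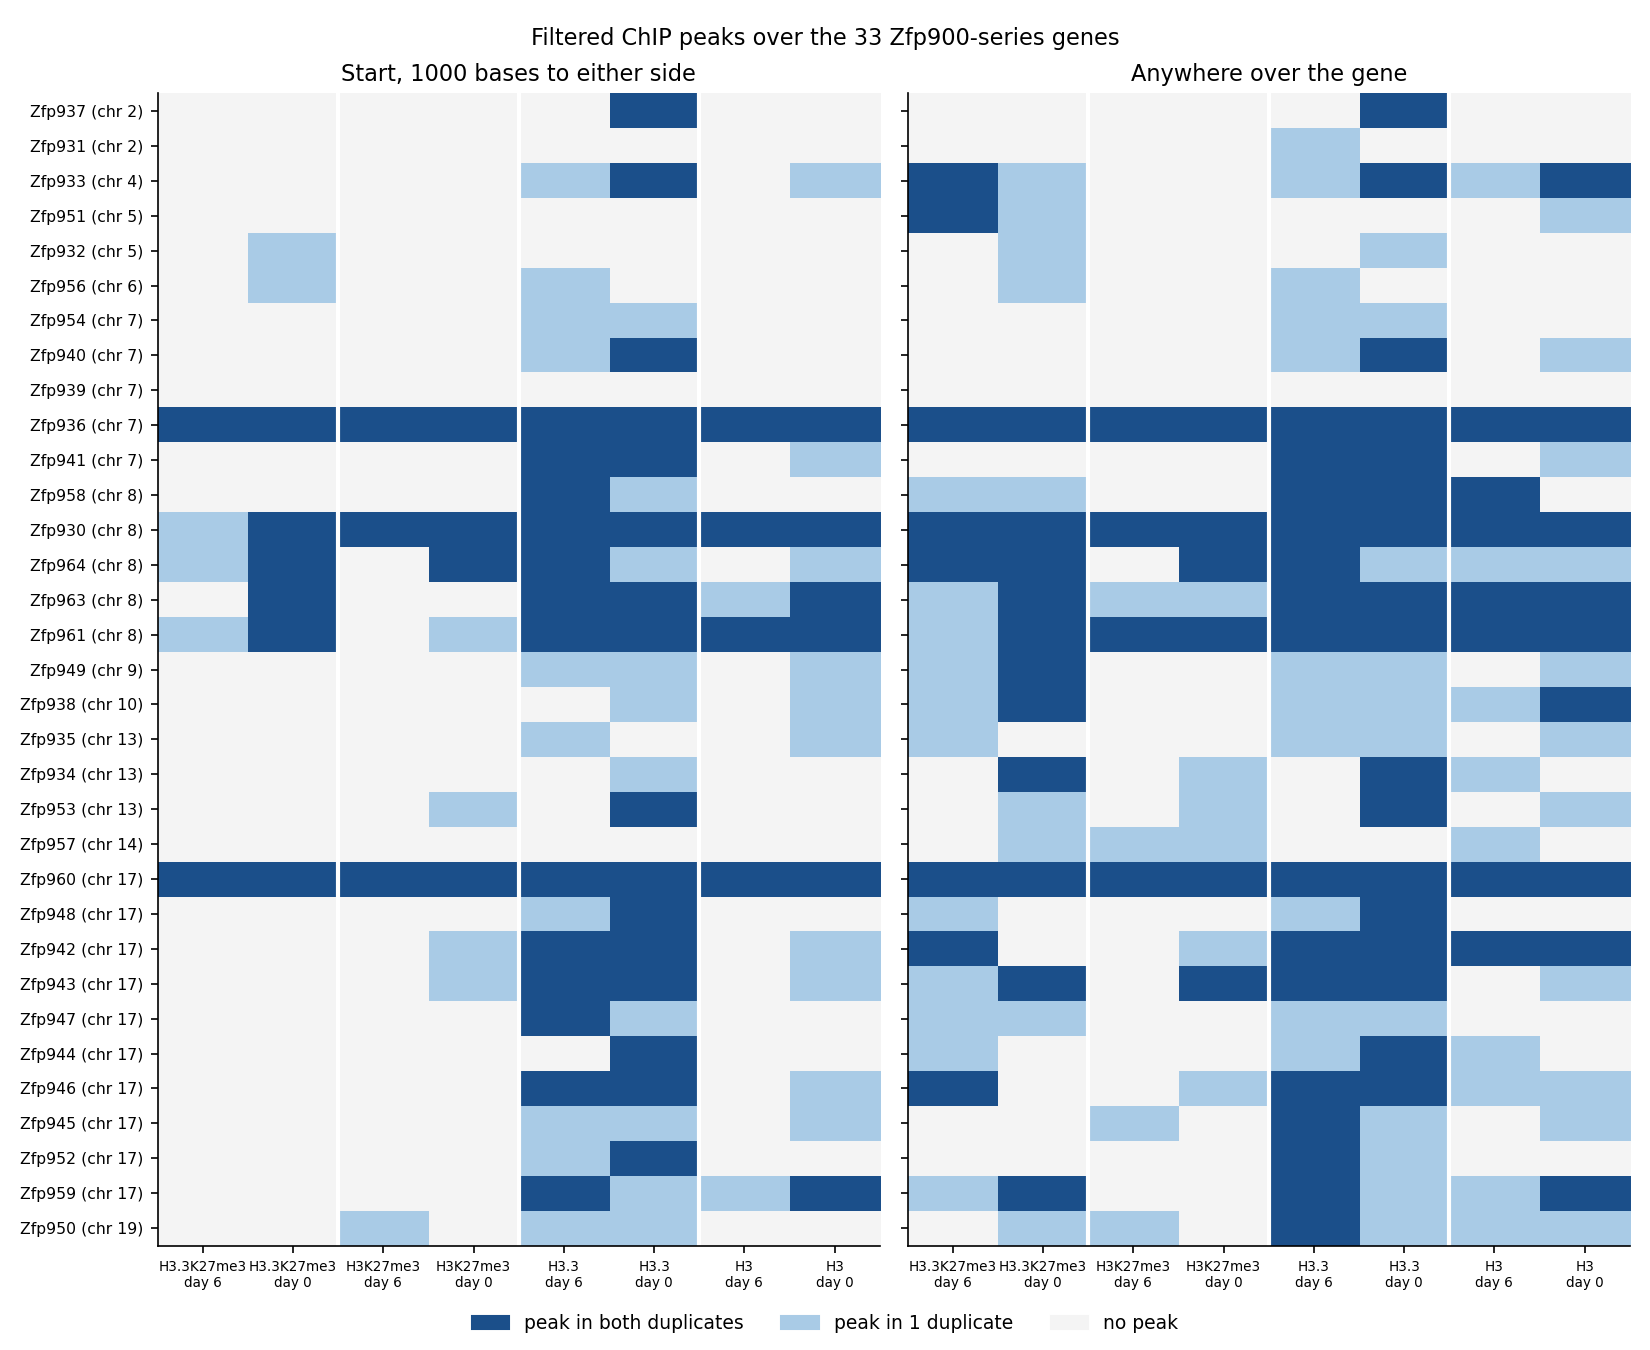
Filtered ChIP peaks at the start (left) and anywhere over the gene (right) of each of the 33 genes, for each antibody at day 6 and day 0. Dark cells had a peak in both duplicates and light cells in 1. Zfp936 and Zfp960 are dark in every column. Zfp964 is dark for H3K27me3 at day 0 and not at day 6. Peaks were called in each library by itself, so a missing call is not an absence of the mark.

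**Figure D5:**
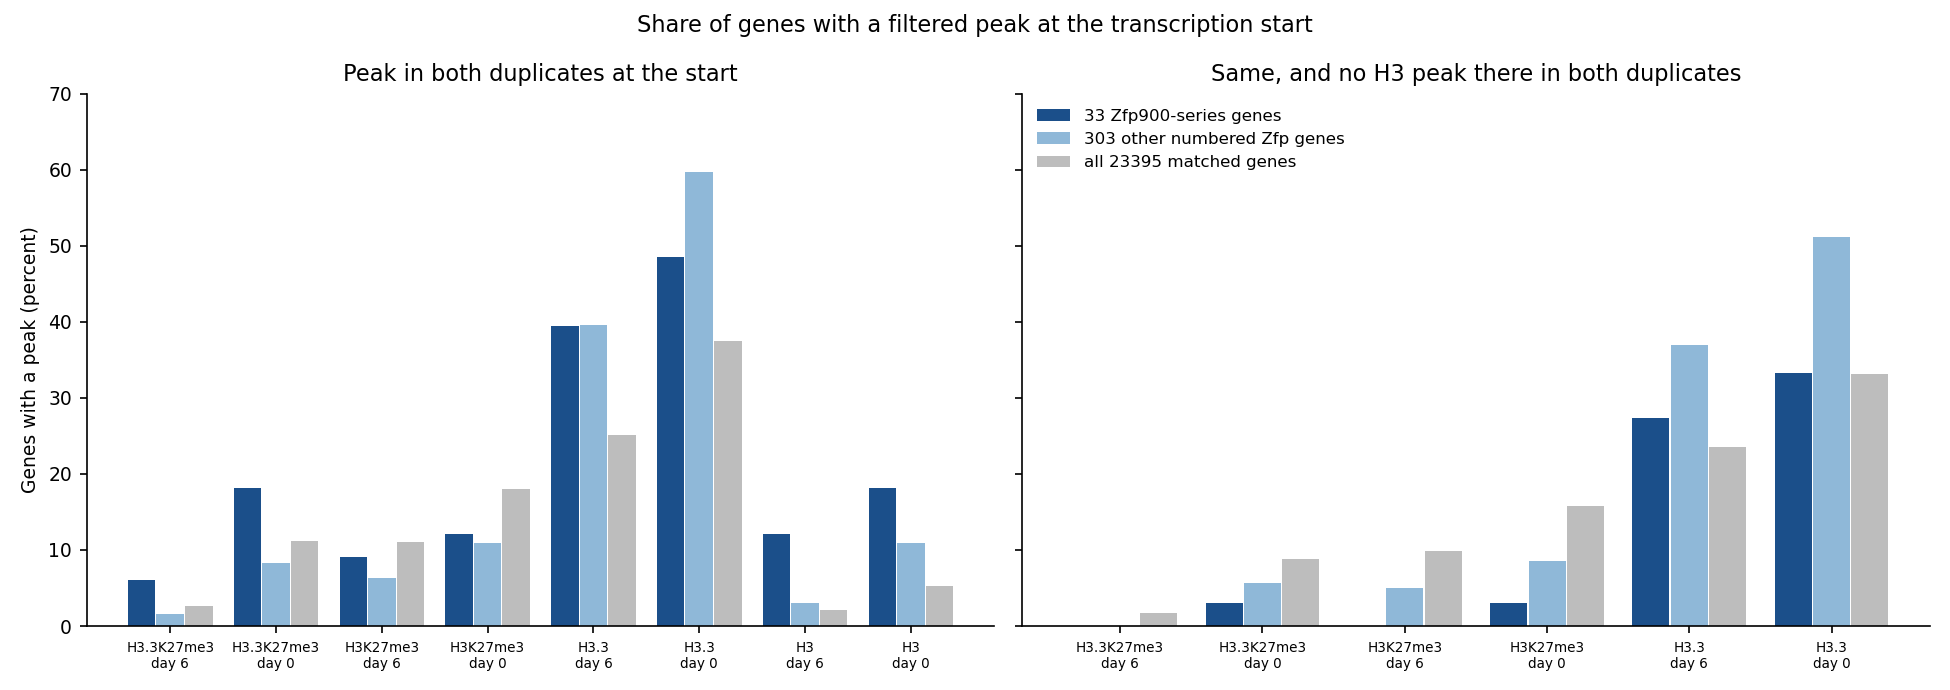
Percent of genes with a peak in both duplicates at the start, for the 33 genes, 303 other numbered Zfp genes and all 23395 genes matched to RefSeq. The right panel leaves out genes with an H3 peak there, and the share of the 33 with H3.3K27me3 at day 0 is then 3.03% in place of 18.2%.

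The authors' deposited tables of differential regions gave signal for H3K27me3, H3.3 and H3. In them 8 H3K27me3 regions lay over 9 of the 33 genes. At a false discovery rate (FDR) under 0.05, 4 of the 8 regions were lower at day 6 and 0 were higher, beside 30.5% of 10491 regions lower and 2.57% higher (33% in either direction). The 4 lay over 5 genes, since Zfp942 and Zfp943 share 1 region. For H3.3, 33 regions lay over 27 genes, with 17 regions (over 16 genes) lower and 0 higher (36.4% of 14812 regions lower, 13.9% higher and 50.4% in either direction). For H3, 12 regions lay over 12 genes, with 6 regions lower and 0 higher (16.6% and 9.23% of 6618, 25.8% in either direction). The tables express each difference as day 0 minus day 6, so a positive value is lower at day 6.

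In the authors' deposited table the H3K27me3 region over Zfp964 (chr8:69649652-69668389) had 671 and 579 at day 6 against 853 and 862 at day 0, a difference of 0.46 on the log2 scale (FDR 4.91e-05). The authors' deposited tables gave a difference of 0.17 for the H3 region there (FDR 0.0893) and 0.01 for H3.3 (FDR 0.961), neither called. The region over both Zfp942 and Zfp943 starts had 231 and 238 at day 6 against 321 and 309 at day 0 for H3K27me3 in the authors' deposited table, a difference of 0.43 (FDR 0.014), and 0.26 for H3.3 (FDR 0.0348). Over Zfp936, the authors' deposited tables gave 0.15 for H3K27me3 (FDR 0.0425), 0.61 for H3.3 (FDR 1.12e-42) and 0.31 for H3 (FDR 1.08e-12), so there the signal of H3 itself was lower at day 6 too. Over Zfp960 the authors' deposited tables gave 0.06 for H3K27me3 (FDR 0.532), 0.28 for H3.3 (FDR 5.72e-06) and 0.16 for H3 (FDR 0.0124). Over Zfp930, a gene of 21.5 kb, the H3K27me3 region was 413.92 kb long and the H3 region 444 kb. The authors' deposited tables gave 0.15 for H3K27me3 (FDR 6.69e-06), 0.07 for H3.3 (FDR 0.177) and 0.15 for H3 (FDR 1.18e-11). Genes with a lower H3K27me3 signal at day 6 thus included 2 whose RNA rose in both WT years (Zfp943 and Zfp964). They also included 2 whose RNA fell (Zfp930 and Zfp936). The last of these genes was Zfp942, which shares the region of Zfp943 and whose RNA was not called in both WT years. The H3 difference was called over Zfp930 and Zfp936 and not over Zfp964. It was no smaller over Zfp964 (0.17, a region of 39.71 kb) than over Zfp930 (0.15, 444 kb), so these calls do not separate risers from fallers. No H3 region was given over Zfp943.

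A list of partners and related repressors held 21 genes of the count files: Trim28, Setdb1, Atf7ip, Morc3, Hells, Smarcad1, Atrx, Daxx, Cbx1, Cbx3, Cbx5, Suv39h1, Suv39h2, Ehmt1, Ehmt2, Dnmt1, Uhrf1, Rex2, Zfp57, Zfp809 and Zfp600, the last 3 of which are also among the other numbered Zfp genes. Of the 18 tested in 2019, 12 fell and 2 rose at day 6 against day 0 (66.7% and 11.1%, beside 36.6% and 41.4% of all genes). In WT 2020, 15 of 19 fell and 2 rose (78.9% and 10.5%, beside 34.8% and 36% of all genes). Trim28, the corepressor, had 1120 and 1165 CPM at day 6 against 3635 and 3090 CPM at day 0 in 2019 (log2 change -1.56 ± 0.08), and 812 and 821 CPM against 3306 CPM in WT 2020 (-2.02 ± 0.11). Setdb1, which methylates lysine 9, changed by -0.41 ± 0.07 and -0.72 ± 0.10 in the 2 years, and Zfp57, the imprint-binding KRAB zinc finger protein, by -2.59 ± 0.09 and -3.22 ± 0.19. Atrx, which works with the H3.3 chaperone Daxx, changed by -0.04 ± 0.06 in 2019 (adjusted p = 0.594) and by -1.08 ± 0.14 in WT 2020. Daxx was near 0 and Smarcad1 is listed at 0 in all libraries. Why the count files list them so was not tested, and these values are not taken as an absence of transcript.

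Beside the 28, 257 other numbered Zfp genes were tested in 2019, of which 53.3% rose and 23% fell at day 6, and 266 in WT 2020, of which 42.1% rose and 22.9% fell. Their median log2 change was 0.42 in 2019 and 0.27 in 2020. The 28 had 35.7% rising and 25% falling in 2019, and 32.1% each in 2020. The difference between the 2 sets was not tested.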

How the data were processed

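The authors' deposited gene counts (HTSeq, STAR 2.5.2a, mm10, per the submitters' processing notes; the strand setting and annotation are not given in the sources used here) were tested as deposited. Counts not assigned to a gene were left out: the no-feature share was 25.7% to 43.3% in 2019 and 11.3% to 16.8% in 2020. The library kit was directional, per the labels. In R 4.3.3, edgeR 4.0.16 was run with filterByExpr, TMM scaling, a mean for each group and its quasi-likelihood test. Each year was fitted by itself, and p-values were adjusted by Benjamini-Hochberg over all genes tested. CPM are counts over TMM-scaled library sizes. DESeq2 1.42.0 was an alternative.

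ChIP peaks are the authors' deposited MACS2 2.2.6 calls, per the file headers (p 1e-2, minimum length 1000, maximum gap 5000, 1 tag per position, no control), 1 call per library of 3 joined runs. The rule by which the authors filtered them is not given in the sources used here. Fold enrichment (a ratio), coverage signal, −log10 p and q scores are the authors' deposited values in these files. Depth was 33.62 to 81.65 M tags. The authors' deposited DiffBind tables give log2 signal, log2 differences, p-values and FDR, and their deposited RNA table gives log2 differences and adjusted p-values. ChIP signal of the 2 days was tested only inside those tables; peaks, enrichments and lengths of the 2 days are set side by side as descriptions of libraries of unequal depth.

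Peaks were joined to RefSeq GRCm38.p6 genes, the build of mm10, by position (23395 of 24465 symbols matched). Transcription starts are those of curated transcripts. The fits were checked on simulated counts: at a 2-fold change 94% of changed genes were recovered for WT day 6 against day 0 in 2019 (13266 genes), 64% in WT 2020 (14321 genes) and 78% for H3.3K27A against H3.3A knockout at day 6 (14347 genes). Only 50 genes were changed per fold size, none of them with a low mean count, and all other genes were equal between groups. Far more genes were called in the real comparisons, so recovery there can differ and was not measured.

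The members, gene lists and tests were chosen with earlier results of these data known. Members named with values in each library were, by rule, the 8 with the highest mean CPM, up to 5 called per direction and comparison with the largest change and at least 1 CPM, and those with a K27me3 peak at the start in both duplicates. Members named outside this rule were chosen after their values were seen. Alternatives were other scaling, no filter, DESeq2, a replicate block, each library left out, only the groups compared, and other peak thresholds and windows.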

Additional observations from a re-analysis of the deposited data

Results flagged for a closer look

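The change of Zfp937 at day 6 over day 0 was larger in H3.3K27A cells than in H3.3A knockout cells, by 0.72 on the log2 scale (SE 0.16, adjusted p = 0.0343, edgeR quasi-likelihood test). The call was lost with a replicate block (adjusted p = 0.0607), with only the groups compared (0.071) and without any 1 of 5 libraries (0.0985 to 0.14). It was picked out because the difference between the 2 lines was itself tested. At day 6 it had 37.6 and 38.2 CPM in H3.3K27A cells and 25.9 and 25.9 CPM in H3.3A knockout cells, and at day 0 11.1 and 9.10 CPM in H3.3K27A cells and 11.7 and 11 CPM in H3.3A knockout cells. No group of RNA libraries had 4 or more libraries, so no single library could be tested against its group.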

How the results depend on the processing

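No value changed sign. Of the 51 single-gene results, 10 lost their call under at least 1 alternative. DESeq2 called 4 genes at day 6 against day 3 in 2019. Replicate numbers did not pair the libraries in 1 way (correlations of deviations -0.52 to 0.23). The largest in size were at day 6 of 2020: -0.52 for H3.3A knockout with WT, -0.31 for H3.3A knockout with H3.3K27A and 0.23 for H3.3K27A with WT. Deviations at day 6 were thus partly shared, with the opposite sign in H3.3A knockout cells, and the cause was not tested. With a replicate block 0 genes were called for H3.3K27A against WT at day 6 and 0 for the interaction of H3.3K27A with H3.3A knockout. Other counts stayed within 1.5 times. Exchanging the H3.3A knockout numbers (a crossed block, chosen after seeing the data) left all counts within 1.5 times.

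With only the libraries compared, calls were 1 for H3.3K27A against WT at day 0, 2 for H3.3K27A against H3.3A knockout at day 0, 4 for H3.3K27A against WT at day 6, and 0 for H3.3K27A against H3.3A knockout at day 6 and for its interaction. Without both H3.3A knockout day 6 libraries (chosen after seeing the data), calls were 1, 1 and 4 in the first 3 of these and 2 for the interaction of H3.3K27A with WT.

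Leaving out each library in turn gave 13 to 17 calls for WT 2019 day 3 against day 0, 4 to 6 for day 6 against day 3 and 16 to 19 for day 6 against day 0. Day 6 against day 0 gave 15 to 16 in WT 2020, 19 to 26 in H3.3A knockout cells and 15 to 18 in H3.3K27A cells. At day 6, calls were 0 to 6 for H3.3A knockout against WT, 0 to 0 for H3.3K27A against WT and 0 to 7 for H3.3K27A against H3.3A knockout. The interactions gave 0 to 4 (H3.3A knockout minus WT), 0 to 0 (H3.3K27A minus WT) and 0 to 6 (H3.3K27A minus H3.3A knockout).

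Most peak counts moved. With an enrichment of at least 5 no gene kept a peak in both duplicates at the start or over the gene, except 1 gene each for H3.3 and H3 over the gene at day 0. With 5000 bases to either side, H3.3K27me3 lay at 5 starts at day 6 and 10 at day 0, and H3K27me3 at 9 at day 0. With an overlap of at least 50% of the gene, counts at day 6 and day 0 were 3 and 6 (H3.3K27me3), 1 and 2 (H3K27me3), 8 and 7 (H3.3) and 3 and 5 (H3). Without genes that had an H3 peak over them (chosen after seeing the data), they were 4 and 4 (H3.3K27me3), 0 and 2 (H3K27me3) and 8 and 10 (H3.3), and at the start 0 and 1 for H3.3K27me3 and for H3K27me3. A peak in 1 duplicate alone gave, at the start at day 6 and day 0, 3 to 4 and 7 to 7 (H3.3K27me3), 3 to 4 and 4 to 8 (H3K27me3), 17 to 19 and 21 to 21 (H3.3) and 5 to 5 and 11 to 11 (H3), and over the gene 13 to 14 and 14 to 17, 6 to 6 and 8 to 10, 20 to 21 and 22 to 23, and 11 to 12 and 14 to 15 for the same antibodies. Causes of these shifts were not tested. With only 50 genes changed per fold size, the simulated recovery of a 1.5-fold change was 78% in WT 2019 and 24% in WT 2020. For H3.3K27A against H3.3A knockout at day 6 it was 42%. Differences of that size between lines may thus be missed, and recovery in the real comparisons was not measured.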

Other observations

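RefSeq gives a further 22 genes of the count files a current symbol between Zfp900 and Zfp999, where the files use an older name. They were looked up after the values had been seen and are no part of the 33. On chromosome 4, there are 9 of them, and 8 passed the filter. All 8 fell at day 6 against day 0 in WT 2019 (log2 changes of -4.90 to -1.48) and in WT 2020 (-5.35 to -1.86). They also fell in H3.3A knockout cells (-5.11 to -1.54) and H3.3K27A cells (-5.77 to -1.76). Of all genes tested, 36.6%, 34.8%, 36.4% and 37.2% fell in those 4 comparisons, in that order. The share of unique exon windows was not computed for these 22 genes. The 2610305D13Rik gene (Zfp979) averaged 18.4 CPM at day 6 against 232.5 CPM at day 0 in 2019, and 19.2 CPM at day 6 against 320.2 CPM at day 0 in WT 2020. Gm13242 (Zfp980) averaged 1.62 CPM at day 6 against 47.4 CPM at day 0 in 2019. On other chromosomes, 7 were tested in 2019, of which 2 rose and 2 fell, beside 41.4% and 36.6% of all genes. In WT 2020, 8 were tested, of which 2 rose and 2 fell, beside 36% and 34.8% of all genes. The 22 summed to 140 to 181 CPM at day 6, 289 to 306 CPM at day 3 and 682 to 832 CPM at day 0, while the 33 summed to 468 to 566 CPM at day 6 and 550 to 742 CPM at day 0.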
